A study of Mus musculus with 6 samples.

Results

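The genes described here encode the subunits of potassium channels and of the hyperpolarization-activated HCN channels, with the auxiliary proteins whose symbols begin in the same way. They were taken as all genes whose mouse symbol begins with Kcn and a letter, or with Hcn and a digit, leaving out Kcnj10, with a mean of at least 10 normalized counts over the 6 libraries. Of 99 symbols that matched, 78 reached that mean and 21 did not, out of 16653 genes kept of 31245 in the table. The 78 comprised 75 genes for subunits and auxiliary proteins in 11 subfamilies and 3 non-coding transcripts named after channel genes. Just inside the minimum lay Kcnk6, with a mean of 11.5, and Kcnrg, with 15.6. Just outside it lay Kcnj14, with 9.61, and Kcnmb1, with 9.04.

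Messenger RNA came from mouse primary cortical neuronal cultures prepared from pups of postnatal day 1, grown for 12 to 13 days in vitro, and exposed for 2 h to NGPF2 at 1.5 ng/ml (3 cultures) or to vehicle, PBS (3 cultures). Both groups shared the same tissue, plating and medium. The labels do not say what NGPF2 is, which strain was used or whether a culture pooled several pups. The submitters describe 3 independent experiments, each with 1 vehicle and 1 NGPF2 culture, and cultures of the same replicate number were taken as that pair.

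Potassium channels let potassium leave the cell and so set the resting potential, end the action potential and pace repetitive firing. Voltage-gated Kv channels open on depolarization, inward rectifier Kir channels and two-pore channels hold the membrane near rest, and calcium-activated channels couple firing to intracellular calcium. HCN channels instead open on hyperpolarization and carry a depolarizing cation current, and in cortical neurons these families together shape excitability, with some Kir and two-pore members found mainly in astrocytes.

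Total counts ran from 17478070 to 45193691 per library. In the sample titles, the 4 libraries of replicates 2 and 3 have names with 1 common stem, which those of replicate 1 lack, so each comparison is also given for replicates 2 and 3 and for replicate 1 apart. The titles do not say what that stem stands for. Neuronal markers were abundant in every library: the 12 pan-neuronal genes summed to 240038 to 269077 with vehicle and 236804 to 339250.0 with NGPF2 (normalized counts), and in replicates 2 and 3 6 of them rose and 0 fell. All 12 astrocyte markers were detected, and all 12 fell in replicates 2 and 3, with sums of 31761 to 91158 with vehicle and 19966 to 34977 with NGPF2. Of 10 microglial markers 8 were kept and 7 fell, with sums of 482 to 1493 with vehicle and 58.6 to 1606 with NGPF2, and Aif1 and Cx3cr1 were each listed at 0 in at least 1 library. The median change of the kept markers in pairs 1, 2 and 3 was 0.018, -2.92 and -2.65 for astrocytes, 0.15, -2.96 and -2.22 for microglia, 0.026, -1.81 and -1.91 for oligodendrocyte precursors, -0.12, -1.86 and -1.75 for fibroblast and mural cells and -0.068, -1.79 and -1.92 for cycling cells (log2). In bulk RNA, fewer cells of a type and less RNA per cell cannot be told apart, and the part of these cells in the channel results was not tested.

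The RefSeq promoter table (GRCm38.p6) gave a window for 52 of the 75 genes, and the 250 bases before the start are printed for 4 of them that the results below turn on. Where a gene had several annotated starts, the outermost was taken. Which start these cultures use was not tested. Kcnj4 had the highest level per length of all members, Kcnj16 fell and Kcnk4 rose in replicates 2 and 3, and Kcnip3 differed most between the library sets together with Kcnv1. Capitals mark matches to the GC box GGGCGG or to the AP-1 motif TGANTCA, on either strand. The sequences run 5′ to 3′ in the direction of transcription.
Kcnj4 (chr15:79505242-79505491, minus strand): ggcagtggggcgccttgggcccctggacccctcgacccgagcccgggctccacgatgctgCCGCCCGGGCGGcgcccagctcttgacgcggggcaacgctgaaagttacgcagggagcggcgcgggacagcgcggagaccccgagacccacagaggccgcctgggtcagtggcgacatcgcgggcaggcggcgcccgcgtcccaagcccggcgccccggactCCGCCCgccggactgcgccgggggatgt
Kcnk4 (chr19:6934516-6934765, minus strand): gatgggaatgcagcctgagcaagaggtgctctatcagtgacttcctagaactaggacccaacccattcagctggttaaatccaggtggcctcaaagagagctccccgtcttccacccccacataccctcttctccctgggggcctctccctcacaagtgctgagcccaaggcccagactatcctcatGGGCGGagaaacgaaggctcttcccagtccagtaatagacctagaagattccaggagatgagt
Kcnj16 (chr11:110967783-110968032, plus strand): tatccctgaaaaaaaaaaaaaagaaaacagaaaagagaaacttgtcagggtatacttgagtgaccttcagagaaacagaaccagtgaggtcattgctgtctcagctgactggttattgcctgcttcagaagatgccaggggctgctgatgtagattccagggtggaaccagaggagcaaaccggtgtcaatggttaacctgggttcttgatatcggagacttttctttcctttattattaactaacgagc
Kcnip3 (chr2:127522095-127522344, minus strand): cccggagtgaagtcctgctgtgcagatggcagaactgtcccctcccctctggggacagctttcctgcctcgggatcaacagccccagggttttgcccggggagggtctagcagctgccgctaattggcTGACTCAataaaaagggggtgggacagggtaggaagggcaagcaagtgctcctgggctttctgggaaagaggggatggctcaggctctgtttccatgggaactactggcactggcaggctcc
The Kcnj4 window held 3 GC boxes, 35 CpG and 77.2% G and C, against no match, 3 CpG and 42.8% for Kcnj16. The Kcnk4 window held 1 GC box, 3 CpG and 54.8% G and C, and the Kcnip3 window 1 AP-1 match. Windows not printed did not follow the contrast of Kcnj4 and Kcnj16. Kcnip1 and Kcnn1, which rose in replicates 2 and 3, held no match, with 52.8% and 63.6% G and C. Kcng4, which fell there, held no match either, with 60.4%.

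Among all windows, 29 of 52 (55.8%) channel promoters held a GC box, against 33% of the 27025 promoters in the table. The 27025 were not filtered by level or gene type, as the 52 were, and no set matched for these was compared. The differences given here therefore cannot be assigned to channel genes as such. Median CpG was 11 in the channel windows and 6 in all windows, with G and C at 62.2% and 52%. The TATA motif TATAAA was found in 1 channel window, that of Kcnj9 (1.92%, against 13% of all windows). AP-1 matches occurred in Kcnip3 and Kcnip4 (3.85%, against 6.85%), and matches to the Egr motif GCGNGGGCG in Hcn2, Kcng3 and Kcnt2 (5.77%, against 4.63%). The cAMP response element TGACGTCA was in 0 of 52 windows, against 1.6% of all. The serum response element (0.074% of all) and 1 fixed form of the RE1 element (0.0074% of all) were also in 0 of 52. Motifs this rare can be missing from 52 windows through the size of the set alone. Their absence therefore says little about channel genes. All motifs were sought on both strands, an Egr match can overlap a GC box, and a match says nothing about binding.

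The comparison over all 3 pairs asked which channel transcripts differed after 2 h of NGPF2. With limma and the pair as a block, 0 of the 78 members and 0 of 16653 genes (0%) passed an adjusted p of 0.05, and the smallest adjusted p among members was 0.379. At an unadjusted p under 0.05 there were 19 members (24.4%) and 2166 genes in all (13.0%), and voom on the recovered counts also called 0 members. The median log2 difference of the members was 0.0045, 0.25 and 0.14 in pairs 1, 2 and 3, against -0.0031, -0.0061 and 0 for all genes kept. With only replicates 2 and 3 in the paired fit, 30 members passed, 20 higher and 10 lower, against 3275 of all genes (19.7%).

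Within replicates 2 and 3 (2 cultures per group), channel genes moved in both directions. NGPF2 cultures had more Kv3 (Kcnc1), Kv12 (Kcnh3, Kcnh4), KChIP (Kcnip1, Kcnip2), Kv beta (Kcnab2, Kcnab3), inward rectifier (Kcnj3, Kcnj4, Kcnj11) and two-pore (Kcnk4, Kcnk9) transcripts, and less Kcnj16, Kcnn3, Kcng4, Kcnf1, Kcnb2, Hcn4, Kcnq3 and Kcnma1. In all, 19 members rose (24.4%) and 8 fell (10.3%), with limma at an adjusted p under 0.05, against 9.77% of all genes higher and 11.3% lower (34.6% of members and 21.1% of all genes in either direction). At a minimum mean of 50, 29 members passed (21 higher and 8 lower), against 27.5% of all genes. No gene set matched for level or cell type was compared, so the larger share cannot be assigned to channel genes as such. Changes are log2 differences of the normalized count plus 1, and these p-values measure the spread between 2 cultures per group only. With library totals in place of size factors, which put the median of all genes at -0.129, 17 members were higher and 13 lower, against 982 and 2659 of all genes (1627 and 1884 with size factors). Each fit without 1 of these libraries left a single culture in a group. The calls of members, like those of all genes, were lost when either vehicle library was left out. They changed in part without either NGPF2 library, while all 27 members kept their sign each time.

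**Figure D1:**
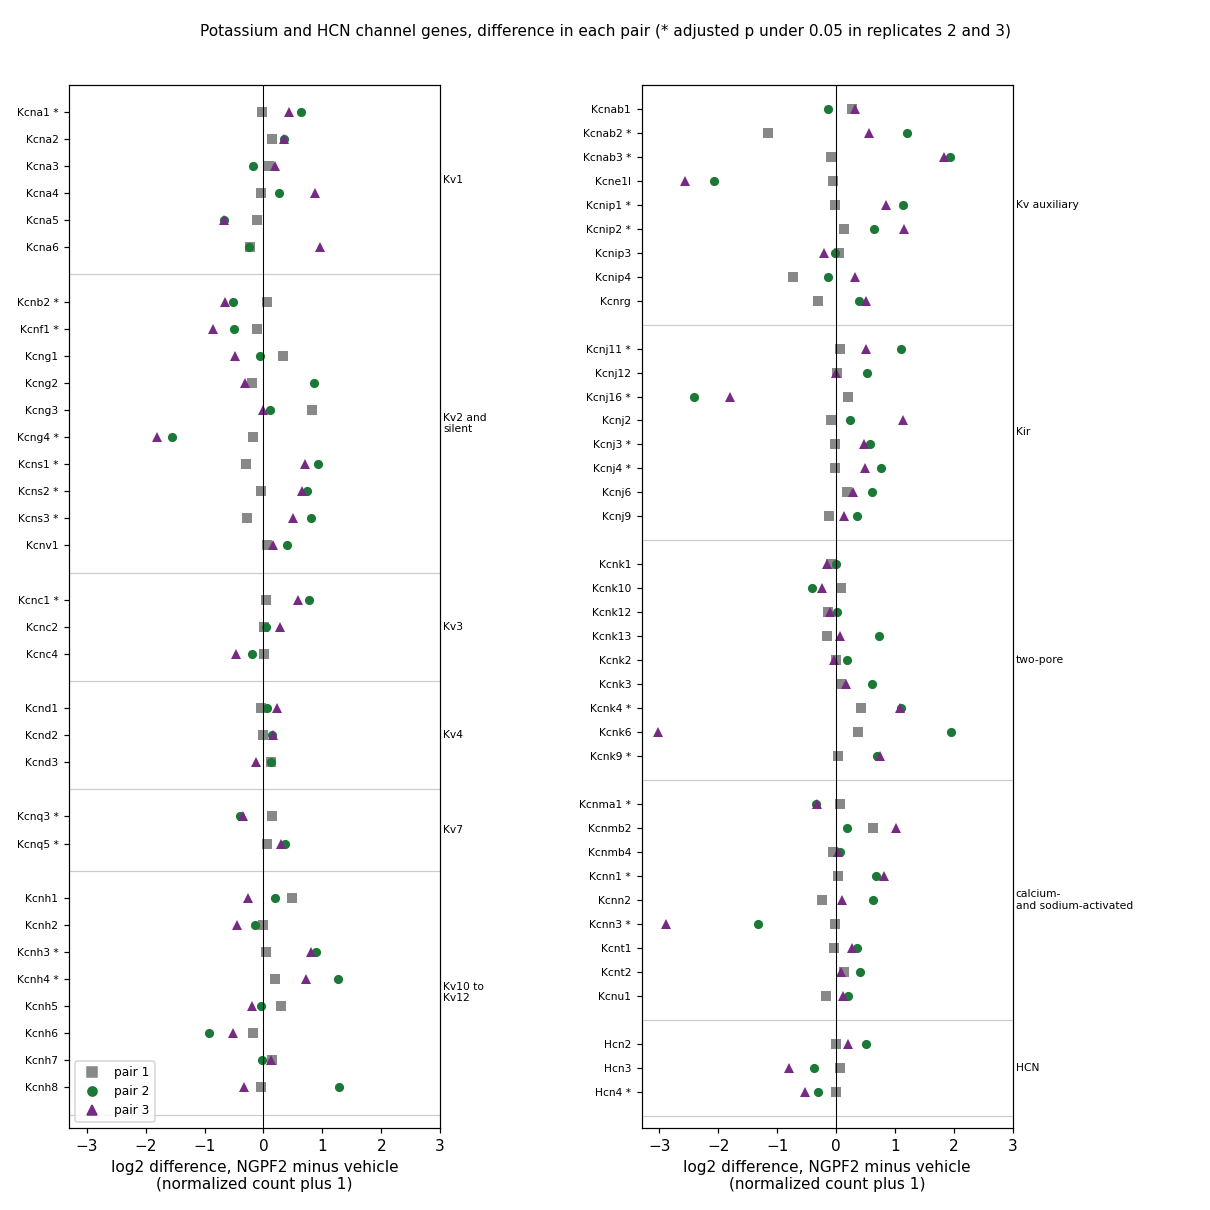
Log2 difference of NGPF2 minus vehicle (normalized count plus 1) for 70 of the 75 subunit and auxiliary genes in pairs 1, 2 and 3, grouped by subfamily, with an asterisk at the 26 of them past an adjusted p of 0.05 in replicates 2 and 3. Most pair 1 squares lie near 0, with Kcnab2 at -1.16 the farthest, while circles and triangles of the starred genes lie on the same side of 0.

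The plot of each pair's difference sets replicate 1 beside the others. Of the 19 members that rose in replicates 2 and 3, 10 were above 0 and 9 below it in pair 1, with a median of 0.030 there against 0.81 and 0.70 in pairs 2 and 3. The 8 members that fell had medians of 0.03, -0.50 and -0.76 in pairs 1, 2 and 3. In 18 of the 19 and 8 of the 8, the pair 1 difference was smaller in size than that of either other pair. These members were chosen by their differences in pairs 2 and 3, so a smaller difference in pair 1 follows in part from that choice. The spread over all genes kept was smaller in pair 1 as well, with standard deviations of 0.43, 0.92 and 0.97 in pairs 1, 2 and 3.

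Values below are normalized counts in replicates 1, 2 and 3 in that order, and tests are of replicates 2 and 3. Among the 6 Kv1 genes, which encode low-threshold channels, many of them on axons and terminals, 1 rose and 0 fell. Kcna1 (Kv1.1, ENSMUSG00000047976, chromosome 6, 126640397 to 126646384 on mm10) stood at 2945, 3210.0 and 3291 in the vehicle cultures and 2879, 4990.1 and 4419 in the NGPF2 cultures. Both NGPF2 cultures of replicates 2 and 3 exceeded all other cultures, and Kcna1 rose (log2 0.53, SE 0.083, adjusted p = 0.0147). Kcna2 (Kv1.2) had a log2 difference of 0.34 with an adjusted p of 0.0579, and of 0.0354 with the replicate block. Kcna3, Kcna4, Kcna5 and Kcna6 did not pass, with differences from -0.68 (Kcna5) to 0.57 (Kcna4). Kcna5 passed as lower with library totals (adjusted p = 0.042 by limma). Of the exon length of Kcna6, 39.6% overlaps a gene on the other strand, and whether the counting used strand is not stated in the labels.

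The Kv2 group joins the Kv2 delayed rectifiers with the silent subunits Kcnf1, Kcng, Kcns and Kcnv1, which form no channel alone and modify Kv2. Of its 11 members 3 rose and 3 fell, and those that rose were all 3 of the Kcns (Kv9) genes. Kcns2 stood at 1043, 739.5 and 749 with vehicle and 1017, 1234 and 1176 with NGPF2 and rose (log2 0.69, SE 0.084, adjusted p = 0.00796), above every other culture in both NGPF2 cultures. Kcns1 (0.81, adjusted p = 0.0381) and Kcns3 (0.66, adjusted p = 0.0306) rose too, but Kcns1 did not pass with library totals (adjusted p = 0.0507).

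Kcnf1 (Kv5.1, ENSMUSG00000051726, chromosome 12, 17172100 to 17176888), the Kv2 group's member of highest level per kb, was counted at 3751, 5731 and 5859.8 in the vehicle cultures and 3467, 4055 and 3223 in the NGPF2 cultures. It fell (log2 -0.68, SE 0.12, adjusted p = 0.0203), and both NGPF2 cultures lay below the paired vehicle cultures and on either side of the 2 replicate 1 cultures. Kcnb2 (Kv2.2) fell from 1338 and 1299 to 939.7 and 826 (log2 -0.58, SE 0.10, adjusted p = 0.018), while replicate 1 held 671 with vehicle and 699 with NGPF2. Kcng4 (Kv6.4) was scarce, at 16.1, 83.1 and 84.7 with vehicle and 14.1, 27.5 and 23.3 with NGPF2, and fell (log2 -1.69, SE 0.26, adjusted p = 0.0136).

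Kv3 channels open at high voltage and close fast, which lets interneurons fire at high rates. Kcnc1 (Kv3.1, ENSMUSG00000058975, chromosome 7, 46396497 to 46438704) stood at 4746, 4945 and 4598 with vehicle and 4916, 8487 and 6886 with NGPF2 and rose (log2 0.68, SE 0.12, adjusted p = 0.0184). The NGPF2 cultures of replicates 2 and 3 exceeded every other culture. Of the 4 Kv3 genes 2 rose and 0 fell. Kcnc4 had -0.33 (adjusted p = 0.103 by limma) and passed as lower with quantile scaling (adjusted p = 0.0495) and library totals (adjusted p = 0.0336).

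None of the 3 Kv4 genes, which carry the fast-inactivating A-type current of dendrites, passed (0 rose and 0 fell). Kcnd2 (Kv4.2) stood at 3222, 2244 and 2323 with vehicle and 3201, 2479.5 and 2584 with NGPF2, with a difference of 0.15 (adjusted p = 0.196), and Kcnd1 and Kcnd3 had 0.15 and -0.0017. Of the KChIPs, the cytoplasmic calcium-binding partners of Kv4, 2 of 4 rose. Kcnip1 (ENSMUSG00000053519, chromosome 11, 33629339 to 33993152) was counted at 2825, 2349 and 2399 in the vehicle cultures and 2788, 5155 and 4302 in the NGPF2 cultures, with both NGPF2 cultures of replicates 2 and 3 above all the others (log2 0.99, SE 0.10, adjusted p = 0.00573). Kcnip2, counted at 716, 2166 and 1539 with vehicle and 790.0, 3399 and 3432 with NGPF2, was also higher in those 2 cultures than in any other and rose (log2 0.90, SE 0.17, adjusted p = 0.0232). Kcnip3 and Kcnip4 did not pass (-0.11 and 0.093).

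The Kv beta proteins bind the cytoplasmic side of Kv1 channels. Kcnab3 (ENSMUSG00000018470, chromosome 11, 69326258 to 69333042) had 368, 198 and 209 in the vehicle cultures and 346, 760.4 and 750.2 in the NGPF2 cultures. Replicate 1 held nearly the same level in both groups, whereas in replicates 2 and 3 Kcnab3 was 3.70-fold higher with NGPF2 (log2 1.89, SE 0.11, adjusted p = 0.00171), the smallest adjusted p of any member. Kcnab2 (ENSMUSG00000028931, chromosome 4, 152390742 to 152477871) had 6329, 5296 and 7899 in the vehicle cultures and 2832, 12143 and 11678 in the NGPF2 cultures. It rose in replicates 2 and 3 (log2 0.88, SE 0.19, adjusted p = 0.0336; adjusted p = 0.0515 with quantile scaling), yet its pair 1 difference was -1.16, so NGPF2 replicate 1 had the lowest level of all cultures. Kcnab1 had 0.093 and did not pass. Of the 9 auxiliary genes 4 rose and 0 fell; Kcne1l, with -2.32, had an adjusted p of 0.0528, and of 0.0168 with the replicate block.

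**Figure D2:**
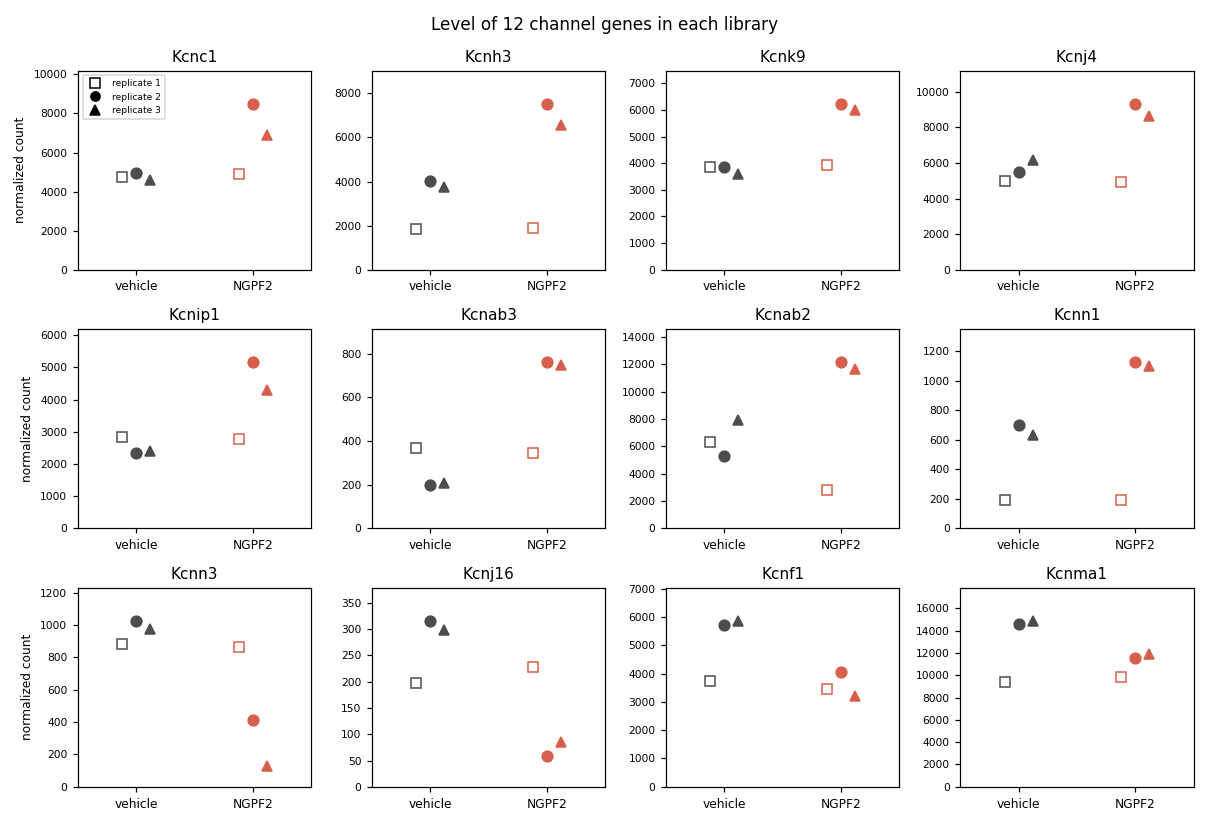
Normalized count of 12 channel genes in each of the 6 libraries, on linear axes from 0, with vehicle left and NGPF2 right and symbols for the replicate number. In replicates 2 and 3 the first 8 genes are higher with NGPF2 and the last 4 lower, while the open squares of replicate 1 lie close together in both groups except for Kcnab2.

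Kv7 channels carry the M-current that restrains repetitive firing. Kcnq3, the member of highest level, fell from 15170.1 and 14064 to 11568 and 11106 (log2 -0.37, SE 0.070, adjusted p = 0.0247). Its replicate 1 values were far lower in both groups, 3251 with vehicle and 3589.8 with NGPF2. Kcnq5, at 3451, 3034 and 2907 with vehicle and 3598, 3929.7 and 3555 with NGPF2, rose (log2 0.33, SE 0.080, adjusted p = 0.0436), but not with library totals (adjusted p = 0.0976) or quantile scaling (adjusted p = 0.0781). Of the 4 Kv7 genes 1 rose and 1 fell.

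The Kv10 to Kv12 genes encode the Eag, Erg and Elk channels. Of 8 members 2 rose and 0 fell, and both were Elk genes. Kcnh3 (Kv12.2, ENSMUSG00000037579, chromosome 15, 99224861 to 99242817) was counted at 1841, 4045 and 3749 in the vehicle cultures and 1896, 7514 and 6538 in the NGPF2 cultures. It rose (log2 0.85, SE 0.093, adjusted p = 0.00646), with both NGPF2 cultures above the 2 vehicle cultures and these above both cultures of replicate 1. Kcnh4, less abundant at 74.8, 113 and 153 with vehicle and 85.7, 271 and 253 with NGPF2, rose as well (log2 0.99, SE 0.20, adjusted p = 0.028). The Erg genes Kcnh2, Kcnh6 and Kcnh7 and the Eag genes Kcnh1 and Kcnh5 did not pass, with differences from -0.73 to 0.055. Kcnh2 passed as lower with library totals (adjusted p = 0.0433 by limma). Kcnh8, the other Elk gene, did not pass either (0.47), and its differences in pairs 2 and 3 were 1.28 and -0.33.

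Among the 8 inward rectifier genes 3 rose and 1 fell. Kcnj4 (Kir2.3, ENSMUSG00000044216, chromosome 15, 79483714 to 79505241), a strong rectifier of forebrain neurons, stood at 5001, 5487 and 6168 in the vehicle cultures and 4913, 9306 and 8633 in the NGPF2 cultures. It rose (log2 0.62, SE 0.086, adjusted p = 0.0106), and the vehicle and NGPF2 cultures of replicates 2 and 3 did not overlap. Kcnj3 (Kir3.1), a subunit of the G protein-gated channel, stood at 1498, 1364 and 1472 with vehicle and 1471, 2030.0 and 2041 with NGPF2 (log2 0.52, SE 0.078, adjusted p = 0.013). Its exons overlap another gene over 31.1% of their length. Its partner Kcnj6 had a difference of similar size that did not pass (0.45, SE 0.14, adjusted p = 0.0798 by limma). Kcnj9 did not pass either (0.25, SE 0.096), and neither was tested against Kcnj3. Kcnj11 (Kir6.2), the pore of the ATP-sensitive channel, stood at 620.3, 497 and 608 with vehicle and 653, 1066 and 861 with NGPF2 and rose (log2 0.80, SE 0.16, adjusted p = 0.0268).

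Kcnj16 (Kir5.1, ENSMUSG00000051497, chromosome 11, 110968033 to 111027968), which pairs with the glial Kir4.1 subunit, was counted at 197, 315 and 298 in the vehicle cultures and 227, 58.6 and 84.4 in the NGPF2 cultures. It was 4.31-fold lower with NGPF2 in replicates 2 and 3 (log2 -2.11, SE 0.23, adjusted p = 0.00605), and those 2 cultures lay below all the others. Kcnj10, which encodes Kir4.1 and is one of the astrocyte markers, is no member here and had 1853, 13990.2 and 12923 with vehicle and 1776, 2164 and 2236 with NGPF2 (log2 -2.61, SE 0.071, adjusted p = 0.000613). All 12 astrocyte markers, Kcnj10 among them, fell in replicates 2 and 3, and their part in the fall of Kcnj16 was not tested.

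Two-pore channels pass the background leak current. Kcnk9 (TASK-3, ENSMUSG00000036760, chromosome 15, 72501089 to 72546340) stood at 3852, 3856 and 3589 in the vehicle cultures and 3932, 6222 and 6003 in the NGPF2 cultures and rose (log2 0.72, SE 0.070, adjusted p = 0.00498). The 4 cultures other than NGPF2 replicates 2 and 3 lay within a narrow band. Kcnk4 (TRAAK, a channel opened by membrane stretch), counted at 68.4, 222 and 209.9 with vehicle and 92.1, 479 and 445 with NGPF2, rose (log2 1.09, SE 0.12, adjusted p = 0.00689), and 13.2% of its exon length overlaps a neighbouring gene on the same strand. Kcnk1 (TWIK-1), the group's member of highest level, had 1538, 4077 and 4299 with vehicle and 1441, 4056 and 3864 with NGPF2 and a difference of -0.081 (adjusted p = 0.452). Of 9 members 2 rose and 0 fell, and Kcnk6 was listed at 0 in NGPF2 replicate 3.

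Calcium- and sodium-activated channels follow spikes with a hyperpolarization. Kcnn1 (SK1, ENSMUSG00000002908, chromosome 8, 70842049 to 70863258) and Kcnn3 (SK3, ENSMUSG00000000794, chromosome 3, 89520164 to 89675132) moved in opposite directions. Kcnn1 had 189, 701 and 629.8 in the vehicle cultures and 194, 1125 and 1102 in the NGPF2 cultures and rose (log2 0.74, SE 0.10, adjusted p = 0.00933). Kcnn3 had 881, 1025 and 976 in the vehicle cultures and 867, 410.1 and 131 in the NGPF2 cultures and fell (log2 -2.10, SE 0.52, adjusted p = 0.047), with its 2 NGPF2 cultures apart from each other by more than any vehicle cultures were. Per kb, Kcnn1 over Kcnn3 was 0.489, 1.56 and 1.47 with vehicle and 0.509, 6.25 and 19.2 with NGPF2, so the order of the 2 was the same in all 4 cultures of replicates 2 and 3 and the opposite in replicate 1. Kcnma1, the pore of the large-conductance BK channel, fell from 14605 and 14869.6 to 11505 and 11887 (log2 -0.33, SE 0.060, adjusted p = 0.0216), and had 9385 and 9876 in replicate 1. Its neuronal partner Kcnmb4 (0.049), SK2 (Kcnn2, 0.36) and the sodium-activated Kcnt1 and Kcnt2 (0.31 and 0.24) did not pass.

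Of the 4 HCN genes 0 rose and 1 fell. Hcn4 (chromosome 9, 58823412 to 58863175), the slowest of the channels, had 1455, 2110.5 and 2164 in the vehicle cultures and 1459, 1712 and 1502 in the NGPF2 cultures and fell (log2 -0.41, SE 0.091, adjusted p = 0.0355). Hcn2, the member of highest level, had 4811, 3055 and 3389 in the vehicle cultures and 4808, 4361 and 3895 in the NGPF2 cultures, with a difference of 0.36 and an adjusted p of 0.0528 (0.0361 with voom). Hcn3 had -0.59 (adjusted p = 0.0833, and 0.0354 with the replicate block). Hcn3 shares 17.1% of its exon length with another gene.

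**Figure D3:**
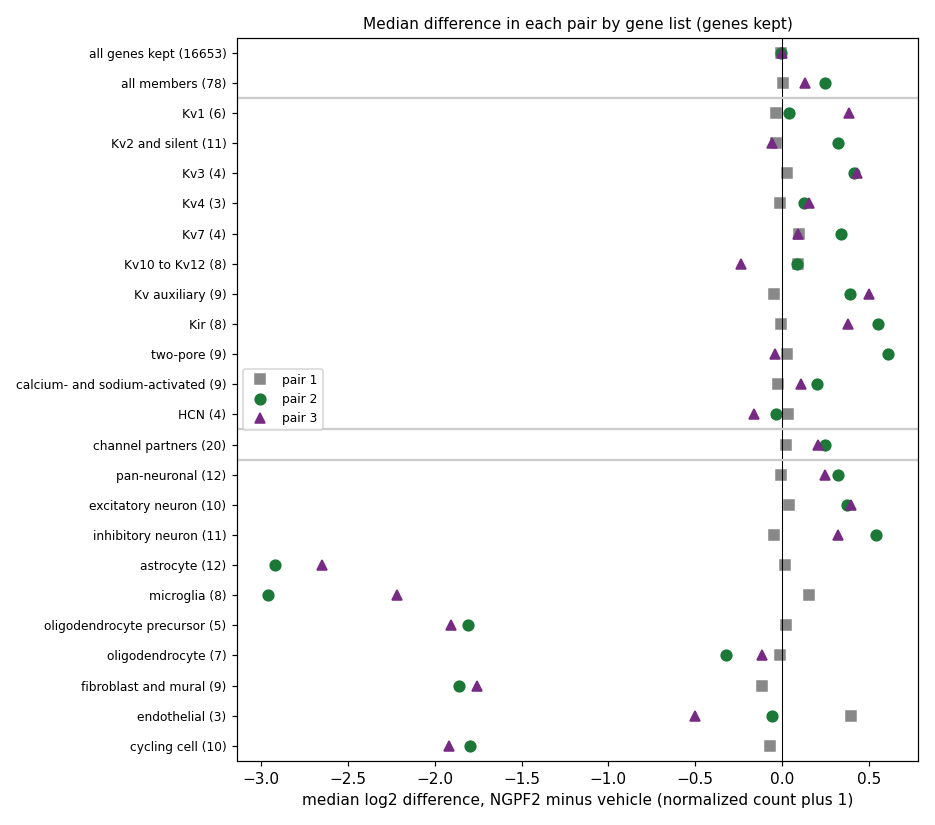
Median log2 difference of NGPF2 minus vehicle in pairs 1, 2 and 3 for all genes kept, the channel genes, their 11 subfamilies, the channel partners and the cell type marker lists, with the number of genes kept in brackets. Pair 1 medians lie near 0 in most lists, and in pairs 2 and 3 the astrocyte, microglial and oligodendrocyte precursor lists lie far to the left while the neuronal lists and most channel subfamilies lie right of 0.

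The plot of list medians sets the subfamilies beside the markers. In pairs 2 and 3 the median difference was 0.55 and 0.38 for Kir, 0.41 and 0.43 for Kv3, 0.39 and 0.50 for the auxiliary genes, and -0.036 and -0.16 for HCN. The pan-neuronal, excitatory and inhibitory markers had 0.32 and 0.25, 0.37 and 0.40, and 0.54 and 0.32. These lists moved in both directions in replicates 2 and 3: of 11 inhibitory markers 6 rose, among them Pvalb (3.22), and 3 fell, Npy (-1.48), Sst (-1.08) and Vip (-0.60). Of 10 excitatory markers 5 rose and 2 fell, Slc17a6 (-1.24) and Neurod6 (-0.58). Two-pore, Kv2 and Kv10 to Kv12 medians differed in sign between pairs 2 and 3. Over replicates 2 and 3, the Kv10 to Kv12 median of 0.0095 became -0.030 with quantile scaling and -0.12 with library totals, so its sign also depends on the scaling. The two-pore median of 0.073 became 0.39 with quantile scaling and -0.054 with library totals. A list of 22 channel partners (other proteins of the channel complexes) had 20 kept, of which 4 rose and 0 fell. These were Lrrc55 (1.21) and Lrrc26 (1.15), both gamma subunits of BK, Abcc8 (0.99), the sulfonylurea receptor that joins Kcnj11, and Dpp6 (0.38), a Kv4 partner. Abcc8 stood at 468, 334 and 361 with vehicle and 486, 766 and 623 with NGPF2.

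Whether the response differed between the library sets was tested directly, as the difference in replicates 2 and 3 minus that in replicate 1. By limma 1 of 78 members passed (1.28%), against 0.721% of all genes higher and 1.77% lower (2.49% in all). That gene was Kcnab3 (log2 1.97, SE 0.19, adjusted p = 0.0214). Kcnab2 had the larger estimate but an adjusted p above the threshold (log2 2.04, SE 0.33, adjusted p = 0.0548), as did Kcnj16 (log2 -2.31, SE 0.38, adjusted p = 0.0555). With the replicate block 5 members passed (3.16% of all genes), among them Kcnab3, Kcnab2 (adjusted p = 0.0196), Kcnj16 (0.0422) and Kcnip1 (0.0489). By voom 10 members passed, with 8.21% of all genes, and with vehicle replicate 2 or 3 left out 0 did. Replicate 1 holds 1 culture per group, whose spread is taken as that of replicates 2 and 3.

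The vehicle cultures of the library sets were compared next, with a single culture on the side of replicate 1, whose spread is taken as that of the other cultures. In this contrast 24 members were higher (30.8%) and 13 lower (16.7%) in replicates 2 and 3 than in replicate 1, against 10.5% and 9.42% of all genes (47.4% of members and 19.9% of all genes in either direction), by limma at an adjusted p under 0.05. Here too no gene set matched for level or cell type was compared. The higher ones included the silent subunits Kcnv1, Kcng1, Kcng4 and Kcnf1, with Kcnq3, Kcnip3 and Kcnn1. The lower ones included the silent subunits Kcns2 and Kcns3, all 3 Kv4 genes and some HCN genes. Excitatory markers summed to 40002, 117573 and 116575 in vehicle replicates 1, 2 and 3, inhibitory markers to 121288, 50130.4 and 53948, and astrocyte markers to 31761, 91158 and 82118. Their part in the channel differences was not tested. The vehicle cultures of replicates 2 and 3 are shared with the NGPF2 comparison above, so the 2 sets of differences are not independent. Leaving out vehicle replicate 2 or 3 left 0 members past the threshold.

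Kcnv1, Kcnip3 and Kcng1 are given with their values although the naming rule did not choose them; they were picked after their values were seen. Kcnv1 (Kv8.1), a silent subunit, had 619.7, 4385 and 4914 in the vehicle cultures and 644, 5783 and 5494 in the NGPF2 cultures, and was 7.48-fold higher in vehicle replicates 2 and 3 than in vehicle replicate 1 (log2 2.90, SE 0.11, adjusted p = 0.00129). Kcnip3, also known as the transcriptional repressor DREAM, had 782, 4877 and 5048 with vehicle and 813, 4817 and 4385 with NGPF2 (6.34-fold; log2 2.66, SE 0.10, adjusted p = 0.00129). Kcng1 had 413, 1963 and 2081 with vehicle and 517, 1894 and 1495 with NGPF2 (4.89-fold; log2 2.29, SE 0.16, adjusted p = 0.00276). In all 3 the 2 cultures of replicate 1 lay below the 4 others.

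Kcnq3 (2.17, 4.49-fold), Kcnn1 (1.81, 3.50-fold), Kcnk4 (1.65) and Kcnk1 (1.44) were higher in the same contrast, with adjusted p-values of 0.00129, 0.00286, 0.00635 and 0.00193 by limma. The lower genes included Kcna3 (-1.12), Kcna4 (-1.02), Kcnd3 (-0.96), Kcnd1 (-0.90), Kcnd2 (-0.50) and Kcnc2 (-0.80). Hcn3 (-1.04) and Hcn2 (-0.58) were lower and Hcn4 (0.55) higher. Genes that rose with NGPF2 in replicates 2 and 3 went either way here. Kcnab3 (-0.85, adjusted p = 0.0163), Kcns3 (-0.71) and Kcns2 (-0.49) were lower, and Kcnip2 (1.35) and Kcnh3 (1.08) were higher. Kcnc1, Kcnk9 and Kcnab2 had 0.0068, -0.050 and 0.031 and did not pass.

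**Figure D4:**
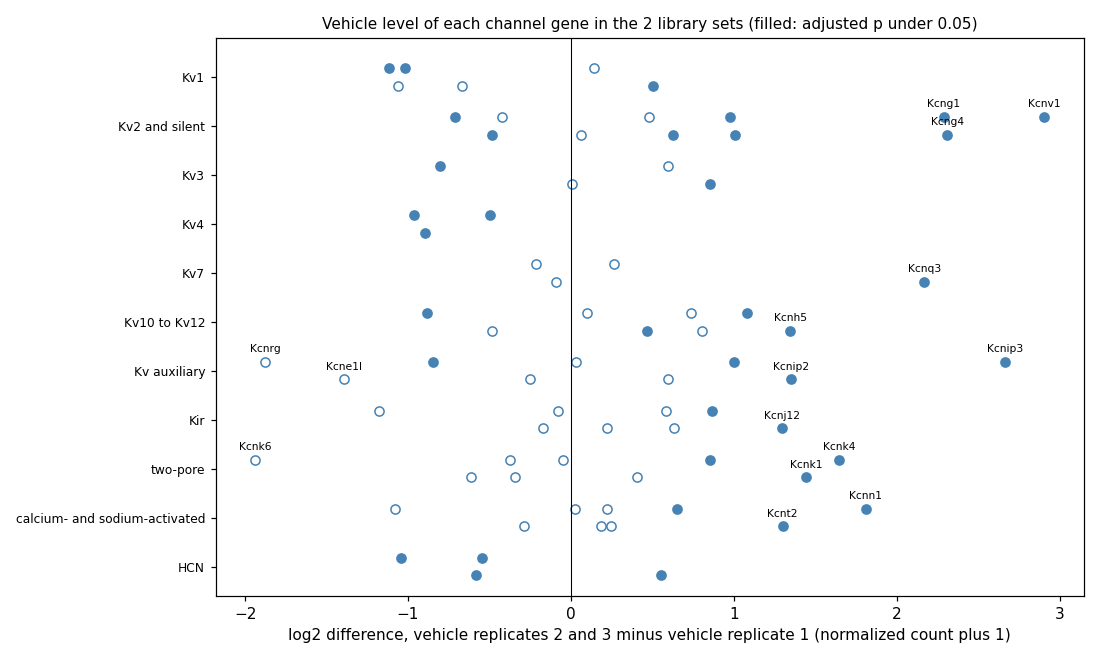
Log2 difference of vehicle replicates 2 and 3 minus vehicle replicate 1 (normalized count plus 1) for each of the 75 subunit and auxiliary genes, 1 point per gene by subfamily, filled where the adjusted p was under 0.05. All 3 Kv4 points are filled and left of 0, and Kcnv1, Kcnip3, Kcng4, Kcng1 and Kcnq3 lie beyond 2 to the right.

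Levels of different genes were compared per kb of exon (GENCODE M21). Kcnj4 had the highest level in all 6 libraries, from 2283 to 4324 normalized counts per kb. Next by mean were Kcnk1 (645 to 1923), Kcnab2 (508 to 2177), Hcn2 (956 to 1506), Kcnip3 (221 to 1423) and Kcnf1 (673 to 1224), whose ranges over the libraries overlapped. Hcn2 ranked 2nd in vehicle replicate 1 and 7th by the mean of vehicle replicates 2 and 3. Kcnip3 over its partner Kcnd2 was 0.353, 3.16 and 3.16 with vehicle and 0.369, 2.82 and 2.46 with NGPF2. This ratio was lower in the 2 cultures of replicate 1 than in the 4 others.

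**Figure D5:**
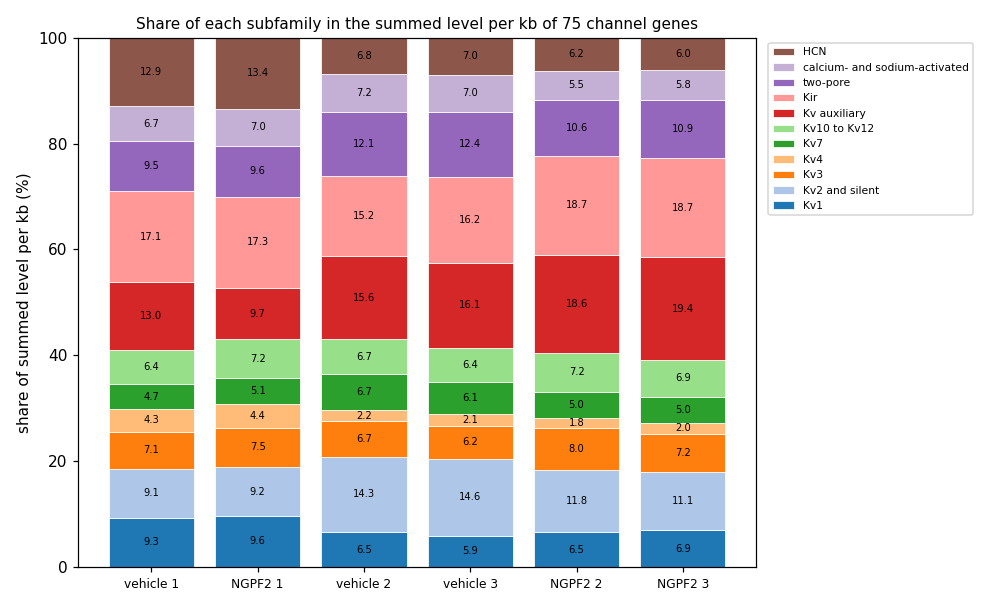
Share of each of the 11 subfamilies (%) in the summed normalized count per kb of the 75 subunit and auxiliary genes, 1 stacked bar per library. HCN genes take 12.9% and 13.4% in replicate 1 and 6.03% to 7.01% in replicates 2 and 3.

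As the stacked shares show, HCN genes made up 12.9, 6.84 and 7.01 with vehicle and 13.4, 6.25 and 6.03 with NGPF2 (% of the summed level per kb), and Kv4 genes 4.27, 2.15 and 2.14 with vehicle and 4.40, 1.82 and 2.05 with NGPF2. Over all 3 replicates the groups overlapped for both, and the library sets did not. Within replicates 2 and 3 both shares were lower in both NGPF2 cultures than in both vehicle cultures. The summed level per kb of all 75 genes was 25193 and 25942 there with vehicle and 32633 and 29761 with NGPF2. A lower share is therefore not a lower level. Summed normalized counts of the Kv4 genes were 3051 and 3123 with vehicle and 3349 and 3378 with NGPF2. Those of the HCN genes were 9253 and 9505 with vehicle and 10446.5 and 9478 with NGPF2. Kir genes took 17.1, 15.2 and 16.2 with vehicle and 17.3, 18.7 and 18.7 with NGPF2, and Kv2 with silent subunits 9.11, 14.3 and 14.6 with vehicle and 9.23, 11.8 and 11.1 with NGPF2. In replicates 2 and 3 the Kir share was higher and the Kv2 share lower in both NGPF2 cultures than in both vehicle cultures. The shares of all other subfamilies were also separated by group in these replicates, Kv1 by the least. Shares of a whole do not vary independently, and with 2 cultures per group such separation can arise without any difference. It was not counted for other gene lists. The two-pore share was lower with NGPF2, while the summed normalized counts of two-pore genes were 11763 and 12062 with vehicle and 14918 and 14207 with NGPF2. No test was made of shares. Auxiliary genes took 13.0, 15.6 and 16.1 with vehicle and 9.72, 18.6 and 19.4 with NGPF2, with the lowest share in the library where Kcnab2 was lowest.

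The 3 non-coding transcripts did not pass in any of these comparisons by limma on the deposited values, and Kcnq1ot1 passed the vehicle contrast with voom (-0.66, adjusted p = 0.0458). Kcnq1ot1, the antisense RNA of the imprinted Kcnq1 locus, had pair differences of 0.46, -0.74 and -0.040, Kcnd3os 0.19, 0.050 and -0.40 and Kcnmb4os2 -0.41, 0.32 and 0.041. Exons of Kcnmb4os2 overlap other genes over 34.2% of their length and those of Kcnd3os over 12.2%, so reads of the partners cannot be told apart without strand.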

How the data were processed

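Poly(A) RNA from 6 cultures was sequenced, per the labels' protocols. Tools listed in the submitters' processing notes are STAR 2.5, Cuffnorm, DESeq 1.22.1 and FastQC, on mm10, without roles. How reads were counted, with which annotation and strand setting, is not given in the sources used here. The authors deposited 1 table of log2 values. Although it is named as FPKM, 2 to the power of each value, minus 1, gave whole multiples of 1 step per library for 100% of values (tolerance 0.01), which makes each value the log2 of 1 plus a normalized count. Totals of the recovered counts were 44788235, 32914352 and 24311967 for vehicle and 45193691, 27105565 and 17478070 for NGPF2 replicates 1 to 3. Columns of replicates 2 and 3 carry the library names of the titles, and replicate 1 was assigned by elimination to the 1 column left in each group. Symbols were found for 31185 identifiers and not for 60.

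The deposited values were tested with limma 3.58.1 (R 4.3.3; 2-sided, empirical Bayes with trend, p-values adjusted by Benjamini and Hochberg over the 16653 genes with a mean of at least 10). The members and lists were chosen with earlier results of these data known. The fit over 3 pairs had the replicate number as a block, since the series states 3 pairs from independent experiments; deviations from group means correlated at r = 0.594, 0.299 and 0.333 between same-numbered libraries, and at 0.342 and 0.320 for replicates 2 and 3 crossed. Replicates 2 and 3, the interaction and the vehicle contrast were fitted without a block. Per subfamily, values are given for the member of highest level per kb, up to 4 members of smallest p that passed in replicates 2 and 3, and any that passed the interaction. Alternatives covered the pseudocount, filter, scaling, prior, block, voom and leaving out libraries. The fits were tested on simulated data. Exon lengths, coordinates and overlaps come from GENCODE M21 on mm10, promoters from RefSeq on GRCm38.p6. A few members enter the counts but are not reported here by name. Figures used matplotlib 3.10.9 in Python 3.11.15.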

Additional observations from a re-analysis of the deposited data

Results flagged for a closer look

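The effect of NGPF2 on Kcnab3 differed between the library sets by a test of the difference itself. It was larger by 1.97 (log2, SE 0.19) in replicates 2 and 3 than in replicate 1, with an adjusted p of 0.0214 by limma. The pair differences were -0.087, 1.93 and 1.84 in pairs 1, 2 and 3, so the gene was higher with NGPF2 in 2 of 3 pairs. Its level was lower in vehicle replicates 2 and 3 than in the 1 vehicle culture of replicate 1 (log2 -0.85, adjusted p = 0.0163). Kcnab3 shares 5.13% of its exon length with the antisense gene Kcnab3os. Without a trend in the prior, or without vehicle replicate 2 or 3, the interaction no longer passed.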

How the results depend on the processing

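For NGPF2 against vehicle over 3 pairs, the count of members past the threshold was 0 under all alternatives except leaving out a replicate, where it ran from 0 to 30 (30 without replicate 1). Without the replicate block it was also 0. In replicates 2 and 3, 27 members passed, against 3 with no filter on low values and 11 with no trend in the prior. Of all genes, 3.44% and 9.22% passed under these 2 settings, against 21.1% in the main fit. With the replicate block 30 members passed (27 of them shared with the 27), against 19.7% of all genes. When 1 library was left out, a group held a single culture, and the calls depended on which library it was. All 27 kept their sign under every alternative in which they were tested. Kcnab2, Kcnh4, Kcnip2, Kcns1 and Kcns3 did not pass when either NGPF2 library was left out, Kcnj11 and Kcnq5 without NGPF2 replicate 2, and Hcn4 and Kcnq3 without NGPF2 replicate 3. For the interaction, where 1 member passed, there were 3 with a pseudocount of 10, 3 with no filter, 5 at a minimum of 50, 4 with quantile scaling, 2 with library totals, 0 with no trend in the prior, 10 with voom, 5 with the replicate block and 0 to 4 when 1 library was left out. For the vehicle contrast, with 37, there were 18 with no filter, 13 with no trend in the prior and 0 to 42 when 1 library was left out. The median difference of members was 0.247 in pair 2 and 0.135 in pair 3, and with library totals 0.107 and 0.0216, where the median of all genes was -0.146 and -0.113. The direction of Kcnab2 over 3 pairs reversed when replicates were left out, from -0.298 without replicate 2 to 0.880 without replicate 1. The cause of these changes was not tested. With 2 cultures per group, genes of low count such as Kcng4 and Kcnk6 are least precise, and the simulated fits varied genes independently.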
